A study of Arabidopsis thaliana with 8 samples.

Results

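The serine carboxypeptidase-like (SCPL) genes of Arabidopsis thaliana were followed in whole seedlings that lack the transcription factor GBF1, alone or together with HY5 or HYH. Genes were taken by symbol alone: every probe set tied to 1 gene whose symbol is SCPL, in upper or lower case, followed by a number. This gave 29 genes with 1 probe set each, of the 51 SCPL genes in the reference gene table and among 22746 probe sets tested. A further 3 SCPL genes were measured only by probe sets tied to several genes, and 19 had no probe set in the probe table used here. SNG1 (SCPL8), SNG2 (SCPL19) and BRS1 (SCPL24) are among those 19 and were not analysed here. Of the genes numbered 1 to 19, only scpl16 and scpl18 had a probe set of their own, so the results cover mostly higher numbers.

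Serine carboxypeptidases are secreted or vacuolar proteins that use a catalytic serine to remove residues from the C-terminal end of peptides. In plants the family has grown, and some members act as acyltransferases that move an acyl group from a glucose ester to another acceptor. SNG1 makes sinapoylmalate, a phenolic ester that screens leaves from ultraviolet light, SNG2 makes sinapoylcholine in seeds, and BRS1 was found through its effect on brassinosteroid signalling. For most other members no role is given here. GBF1, HY5 and HYH belong to the bZIP class of DNA-binding proteins and act in the light response. HY5 promotes light-dependent seedling development, and HYH is its closest relative.

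The study had 4 genotypes with 2 arrays each: the gbf1 hy5 double mutant, the gbf1 hyh double mutant, the gbf1 single mutant and wild type (Col-0). All seedlings were 4 days old and grew at 22 °C on medium with 1% sucrose under white light that was never switched off (20 µmol/m2/s), after a cold treatment of 4 days at 4 °C. All 3 mutants lack GBF1, so the 3 comparisons among them describe changes on a gbf1 background. The labels name an ecotype for wild type alone, and the sources used here do not name the mutant alleles, so effects of the mutations and of the genetic background cannot be told apart. The 2 arrays of a genotype are called biological replicates in the labels, with no further word on their origin. The p-values set a difference of means against the spread between such arrays, estimated jointly over the 4 genotypes for each probe set.

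Signals are on a log2 scale on which each probe set has its median over the 8 arrays at 0. These values show how a gene differs between arrays and not how strongly it is expressed, so levels are not compared between genes. In whole seedlings fewer cells of a type and less RNA per cell cannot be told apart. Differences were tested with limma on all 8 arrays, and a gene was called at a p-value under 0.05 after Benjamini-Hochberg adjustment over all probe sets tested. HYH could be followed in these mutants because 1 probe set is tied to it alone. It had signals of -2.03 and -1.78 on the gbf1 hyh arrays. HYH had -1.01 and -0.86 on the gbf1 hy5 arrays, 1.69 and 1.94 on the gbf1 arrays, and 1.08 and 0.86 on the wild-type arrays. Its lowest values were thus on the arrays labelled gbf1 hyh, and it was also below wild type and gbf1 on both gbf1 hy5 arrays, so gbf1 hy5 carries a lower HYH signal besides the loss of HY5. GBF1 and HY5 were not analysed here.

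The arrays gbf1 replicate 2 and gbf1 hyh replicate 2 stood apart by the mean signal of their hybridisation control probe sets, at 1.79 and 1.5 against values from -0.52 to 0.27 on the other 6. Over the SCPL genes, the SD of the difference between both arrays of a genotype was 0.17 in gbf1 hy5, 0.26 in gbf1 hyh, 0.34 in gbf1 and 0.14 in wild type. The 95% interval of a difference between genotypes had a median half-width of 0.36 for these genes.

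Most of the 29 genes varied little, and a few rose in gbf1 hy5. Of 29 genes, 5 (17.2%) were called in at least 1 of the 6 comparisons (scpl35, SCPL49, SCPL34, SCPL45 and scpl25), and 24 in none, where 7.2% of all probe sets were called in at least 1. Against wild type or gbf1 there were 6 called differences, all rises: 5 in gbf1 hy5 (scpl35, SCPL49 and SCPL34) and 1 in gbf1 hyh (SCPL49). The other 3 were between the double mutants, where neither genotype is a control: scpl35, SCPL45 and scpl25 were higher in gbf1 hy5 than in gbf1 hyh. The range of the 4 genotype means had a median of 0.25 over the SCPL genes, against 0.32 over all probe sets. It ran from 0.086 for scpl30 to 1.70 for scpl35, and was at least 2-fold in 3 genes, scpl35, SCPL49 and SCPL45. The same 3 genes were called by the limma F test over the 4 genotypes, which called 4.92% of all probe sets.

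**Figure D1:**
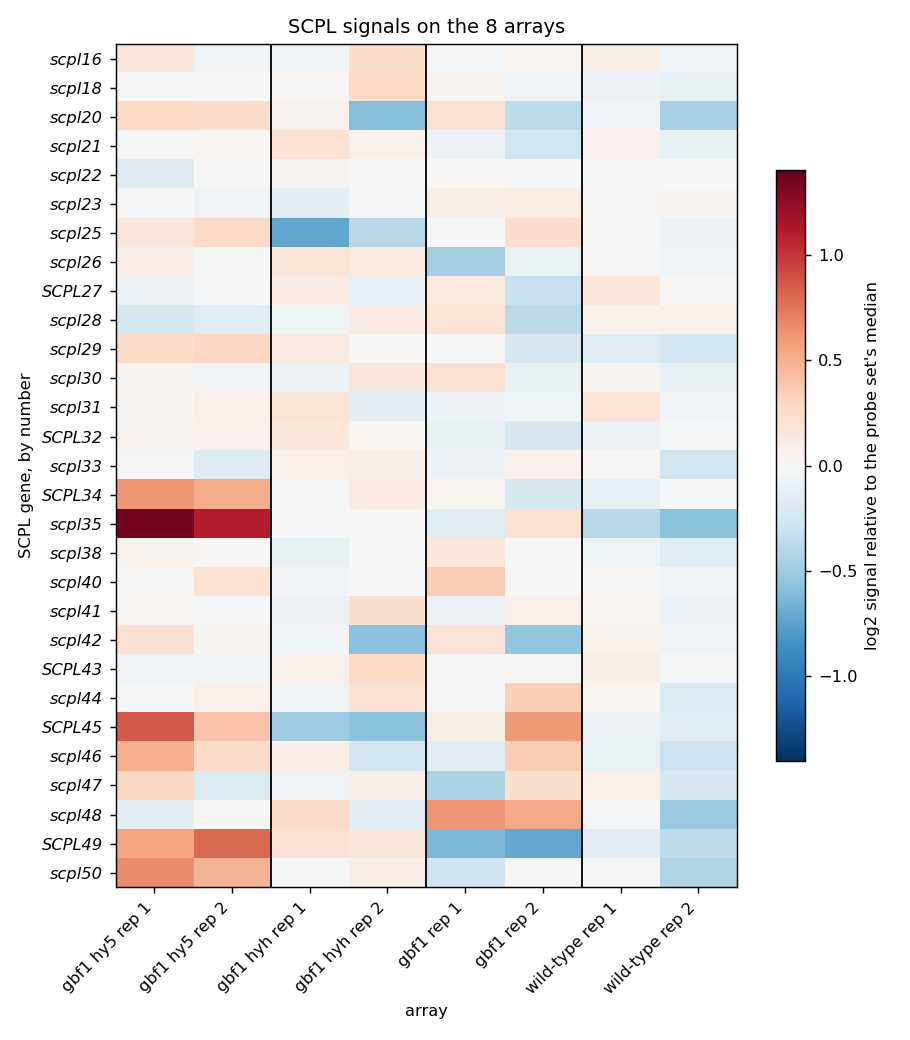
Signals of the 29 SCPL genes (rows, by number) on the 8 arrays (columns, by genotype), as log2 relative to the probe set's median. The strongest colours are in scpl35 on both gbf1 hy5 arrays, at 1.34 and 1.1, while most rows stay pale on every array.

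The gene scpl35 (AT5G08260) rose in gbf1 hy5 against each of the other genotypes. Its signal was 1.34 and 1.1 in gbf1 hy5, 0.005 and -0.005 in gbf1 hyh, -0.17 and 0.22 in gbf1, and -0.40 and -0.57 in wild type. Both gbf1 hy5 arrays lay above the other 6, both wild-type arrays lay below the other 6, and gbf1 hyh and gbf1 overlapped. The rise in gbf1 hy5 was 1.70 against wild type (SE 0.17, adjusted p = 0.00162), or 3.25-fold. It was 1.19 against gbf1 (SE 0.17, adjusted p = 0.00582) and 1.22 against gbf1 hyh (SE 0.17, adjusted p = 0.00686). The steps between the lower genotypes did not pass: gbf1 hyh differed from gbf1 by -0.02 (95% interval -0.41 to 0.37), gbf1 hyh from wild type by 0.48 (adjusted p = 0.337) and gbf1 from wild type by 0.51 (adjusted p = 0.398). The rise against wild type passed whichever of the 8 arrays was left out. Without gbf1 hy5 replicate 1 the other two rises did not pass (adjusted p = 0.0752 against gbf1 and 0.0882 against gbf1 hyh), while without both arrays of high control signal all 3 passed.

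SCPL49 (AT3G10410), which the gene table also calls carboxypeptidase Y after the vacuolar enzyme of yeast, differed most between gbf1 hy5 and gbf1. Its signal was 0.55 and 0.80 in gbf1 hy5, 0.20 and 0.16 in gbf1 hyh, -0.63 and -0.71 in gbf1, and -0.16 and -0.35 in wild type. No 2 genotypes overlapped, and gbf1 lay below wild type while both double mutants lay above it. SCPL49 rose in gbf1 hy5 by 1.35 against gbf1 (SE 0.15, adjusted p = 0.00158), or 2.55-fold, and by 0.93 against wild type (SE 0.15, adjusted p = 0.0155). It also rose in gbf1 hyh against gbf1, by 0.85 (SE 0.15, adjusted p = 0.0217). Neighbouring genotypes in this order did not differ beyond the test: 0.50 for gbf1 hy5 against gbf1 hyh (adjusted p = 0.142), 0.43 for gbf1 hyh against wild type (adjusted p = 0.319) and -0.42 for gbf1 against wild type (adjusted p = 0.445). The rise of gbf1 hy5 against gbf1 passed with any 1 array left out. The rise against wild type passed in 4 of the 8 such fits and did not pass without any 1 array of gbf1 hy5 or wild type (adjusted p up to 0.183). That of gbf1 hyh against gbf1 passed in 3 of the 8, reached 0.0821 without gbf1 replicate 2, and was at 0.102 without both arrays of high control signal, 0.0775 with array weights and 0.145 when only the compared genotypes were fitted.

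SCPL34 (AT5G23210) was high in gbf1 hy5 and close to 0 elsewhere. Its signal was 0.61 and 0.52 in gbf1 hy5, -0.02 and 0.12 in gbf1 hyh, 0.02 and -0.21 in gbf1, and -0.12 and -0.03 in wild type. Both gbf1 hy5 arrays lay above the other 6, and gbf1 overlapped with both gbf1 hyh and wild type. It rose in gbf1 hy5 by 0.66 against gbf1 (SE 0.15, adjusted p = 0.0404), while the differences of 0.64 from wild type (adjusted p = 0.068) and 0.52 from gbf1 hyh (adjusted p = 0.121) did not pass. Without both arrays of high control signal the calls changed over: the difference from gbf1 was 0.54 (adjusted p = 0.0916) and that from wild type was called. The rise against gbf1 also did not pass after quantile normalisation (0.0697) or when only the compared genotypes were fitted (0.103). With single arrays left out, it passed in 3 of 8 fits, with an adjusted p of up to 0.25 without gbf1 hy5 replicate 1.

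SCPL45 (AT1G28110) separated both double mutants. Its signal was 0.86 and 0.40 in gbf1 hy5, -0.51 and -0.57 in gbf1 hyh, 0.08 and 0.59 in gbf1, and -0.08 and -0.16 in wild type. The gbf1 hyh arrays lay below the other 6, gbf1 hy5 and gbf1 overlapped, and both of these lay above wild type. SCPL45 was 1.17 higher in gbf1 hy5 than in gbf1 hyh (SE 0.21, adjusted p = 0.02), or 2.25-fold. No other comparison passed, with -0.88 for gbf1 hyh against gbf1 (adjusted p = 0.0678), 0.75 for gbf1 hy5 against wild type (adjusted p = 0.126) and -0.42 for gbf1 hyh against wild type (adjusted p = 0.554). With single arrays left out it passed in 2 of 8 fits, those without a gbf1 array, and its adjusted p was up to 0.179 without gbf1 hy5 replicate 1. Without both arrays of high control signal it passed, at 1.14 (adjusted p = 0.0272). Without gbf1 replicate 1 the difference of gbf1 hyh from gbf1 also passed, at -1.13 (adjusted p = 0.0339).

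The gene scpl25 (AT3G02110) also separated both double mutants, with gbf1 hyh on the low side. Its signal was 0.16 and 0.27 in gbf1 hy5, -0.73 and -0.38 in gbf1 hyh, 0.003 and 0.23 in gbf1, and -0.003 and -0.08 in wild type. The gbf1 hyh arrays were the lowest, and gbf1 hy5 overlapped with gbf1. It was 0.77 higher in gbf1 hy5 than in gbf1 hyh (SE 0.17, adjusted p = 0.0453), or 1.71-fold, and the F test did not call it (adjusted p = 0.0777). The differences of gbf1 hyh from gbf1 (-0.67, adjusted p = 0.0774) and from wild type (-0.51, adjusted p = 0.265) did not pass. With single arrays left out it passed in 2 of 8 fits, with an adjusted p of up to 0.301 without gbf1 hy5 replicate 2. It passed without both arrays of high control signal (adjusted p = 0.0188), but not after quantile normalisation (0.085), over probe sets tied to 1 gene only (0.052) or when only the compared genotypes were fitted (0.0981).

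**Figure D2:**
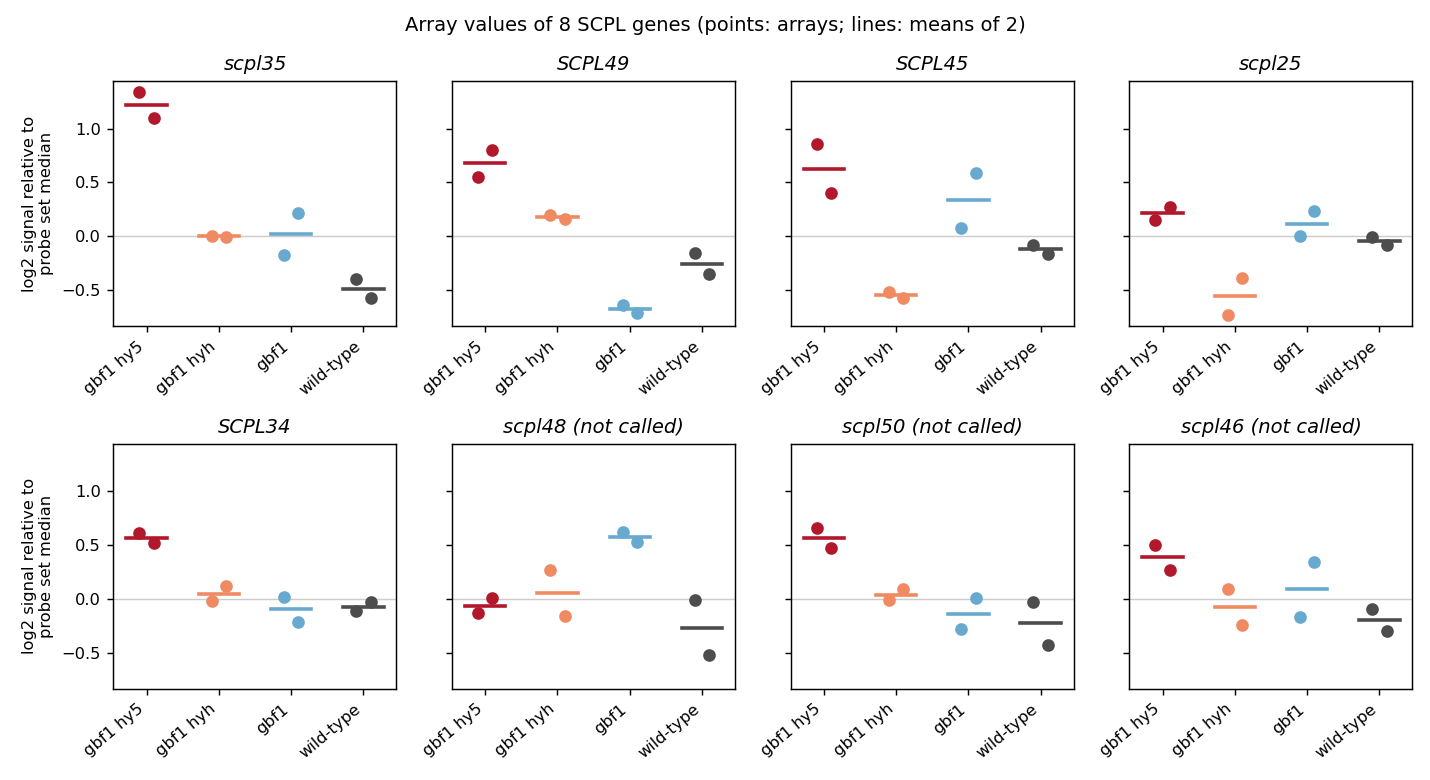
Log2 signal relative to the probe set's median (vertical axis) of 5 called SCPL genes and of the 3 uncalled genes with the widest range of genotype means, with a point for each array and a line for the mean of 2. In scpl35, SCPL49, SCPL34 and scpl50 both gbf1 hy5 points lie above all others, and in SCPL45 and scpl25 both gbf1 hyh points lie below all others.

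Among the genes called in no comparison, scpl48, scpl50 and scpl46 had the widest ranges of genotype means, at 0.84, 0.79 and 0.58. The gene scpl50 (AT1G15000) had signals of 0.66 and 0.47 in gbf1 hy5, -0.01 and 0.09 in gbf1 hyh, -0.28 and 0.01 in gbf1, and -0.03 and -0.43 in wild type. Both gbf1 hy5 arrays lay above the other 6, as in the called genes scpl35, SCPL49 and SCPL34. Its differences in gbf1 hy5 were 0.79 from wild type (SE 0.18, adjusted p = 0.0643), 0.70 from gbf1 (adjusted p = 0.0656) and 0.53 from gbf1 hyh (adjusted p = 0.203). The first of these was called without both arrays of high control signal.

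The gene scpl48 (AT3G45010) showed another order, with gbf1 at the top. Its signal was -0.13 and 0.01 in gbf1 hy5, 0.27 and -0.16 in gbf1 hyh, 0.62 and 0.53 in gbf1, and -0.01 and -0.52 in wild type. Both gbf1 arrays lay above the other 6. Its differences were 0.84 for gbf1 against wild type (SE 0.21, adjusted p = 0.18), -0.64 for gbf1 hy5 against gbf1 (adjusted p = 0.135) and -0.52 for gbf1 hyh against gbf1 (adjusted p = 0.286), and none passed. For scpl46 (AT2G33530) the signals were 0.51 and 0.27 in gbf1 hy5, 0.09 and -0.24 in gbf1 hyh, -0.16 and 0.34 in gbf1, and -0.09 and -0.29 in wild type. Only gbf1 hy5 against wild type and against gbf1 hyh kept its arrays apart in scpl46, with differences of 0.58 (adjusted p = 0.261) and 0.46 (adjusted p = 0.358).

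The other 21 genes had a range of genotype means from 0.086 to 0.54 (scpl20), with a median of 0.20, and 15 were under 0.25. Their smallest adjusted p in any comparison was 0.155, for scpl29 (AT4G30810) in gbf1 hy5 against wild type, with a difference of 0.49. The signal of scpl29 was 0.26 and 0.29 in gbf1 hy5, 0.13 and -0.01 in gbf1 hyh, 0.01 and -0.21 in gbf1, and -0.17 and -0.25 in wild type. At the widest of these ranges, scpl20 (AT4G12910) had 0.28 and 0.25 in gbf1 hy5, 0.05 and -0.60 in gbf1 hyh, 0.21 and -0.36 in gbf1, and -0.05 and -0.45 in wild type. Its low values on gbf1 hyh replicate 2 and gbf1 replicate 2 were shared by scpl42 (AT5G42240), which had -0.58 and -0.54 there, against -0.04 and 0.18 on the other array of each. Those are the arrays of high control signal, wild-type replicate 2 was also low in scpl20, and the part of the array in these values was not tested.

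**Figure D3:**
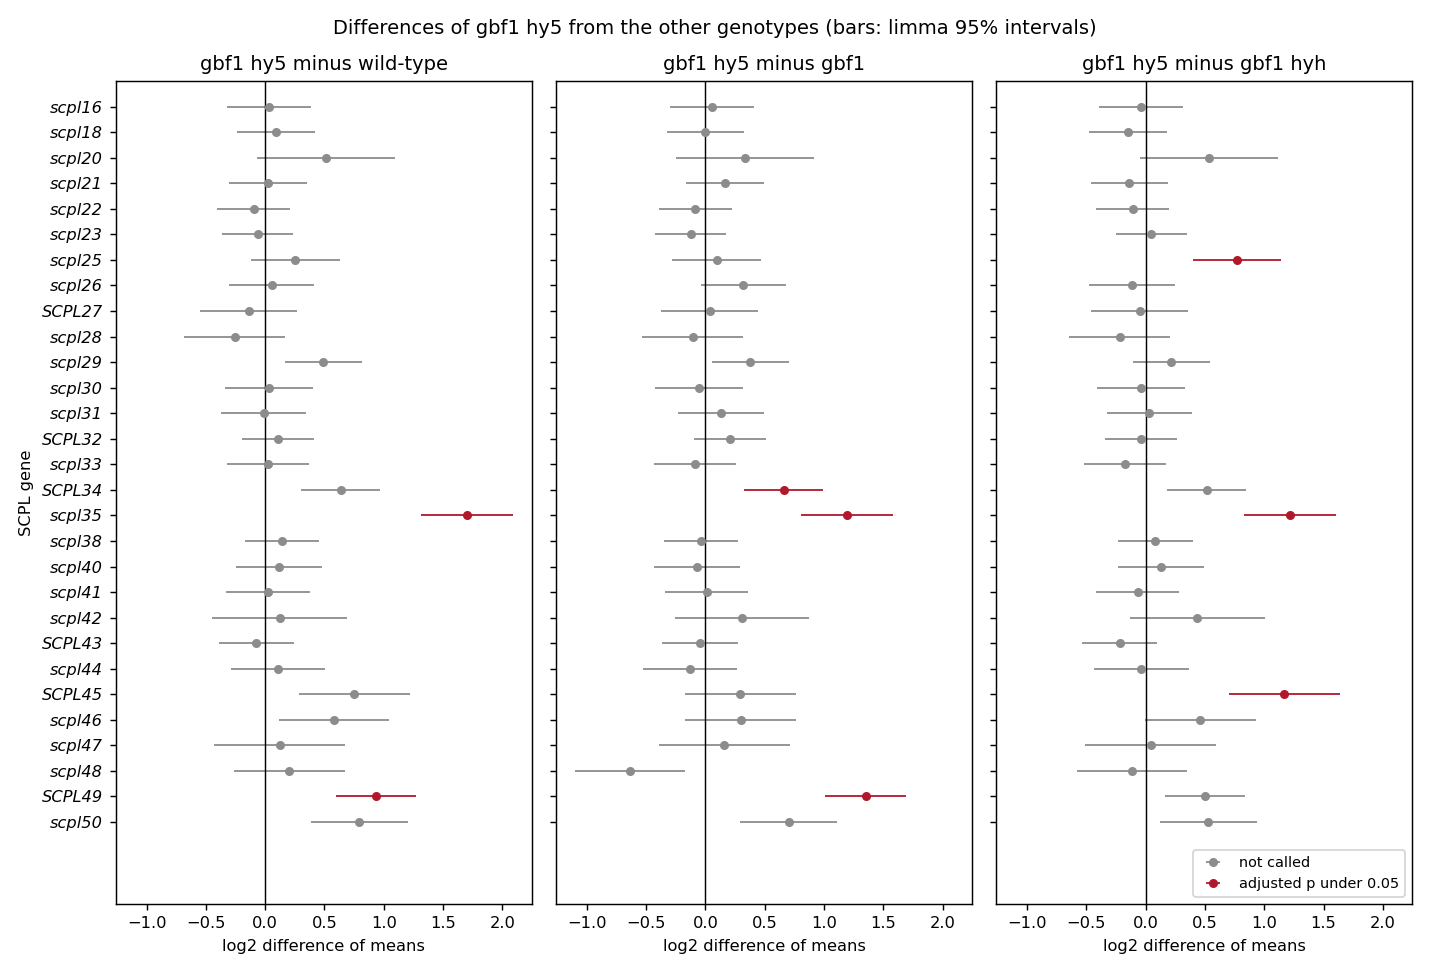
Log2 differences of gbf1 hy5 from wild type, gbf1 and gbf1 hyh (horizontal axis) for the 29 SCPL genes, with limma 95% intervals and called genes in red. The rises of scpl35 lie at 1.70, 1.19 and 1.22, and no gene is called on the negative side, where scpl48 lies at -0.64 in the panel against gbf1.

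Against wild type, 2 of the 29 SCPL genes (6.90%) rose in gbf1 hy5, scpl35 and SCPL49, none fell and 27 were not called. Over all probe sets 2.18% were called in this comparison, 1.06% as higher and 1.11% as lower. Background shares are over all 22746 probe sets, while the 29 SCPL genes are among the 13513 tied to 1 gene. Tested alone with an adjustment of their own, those 13513 had 200 calls in this comparison, where all 22746 had 495. The sets differ in size, so these counts are not to be read as shares. At an unadjusted p under 0.05 there were 7 SCPL genes, all higher, and 12.3% of all probe sets. Differences were above 0 in 23 of the 29 (79.3%) and in 55.3% of all probe sets, with a median of 0.11 in the SCPL genes and 0.02 in all. Both gbf1 hy5 arrays lay above both wild-type arrays in 12 SCPL genes (41.4%, against 26.8% of all probe sets) and below them in 5 (17.2%, against 19.7%). The excess of differences above 0 was smallest without wild-type replicate 2: 16 of the 29 (55.2%) were then above 0, against 51.9% of all probe sets, and the median was 0.026. Without gbf1 hy5 replicate 1 the count was 19 (65.5%, against 54.8%), and without wild-type replicate 1 it was 24 (82.8%, against 57.5%). Leaving out arrays cannot say which of 2 wild-type arrays is the unusual one. Wild-type replicate 2 had the lowest median signal over the SCPL genes, -0.11, while the other 7 arrays lay between -0.007 and 0.044. Without both arrays of high control signal, neither of which is a gbf1 hy5 or wild-type array, 5 genes were called: scpl35, SCPL49, SCPL34, SCPL45 and scpl50. Over all probe sets 4.95% were called in that fit.

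The gbf1 hy5 seedlings also differed in organ markers. A probe set tied to the gene alone was found for 9 of 29 organ and cell markers. Since values are relative to each probe set's median, the presence of a tissue could not be checked and marker signals were not summed. Of the 3 leaf markers, LHCB4.2, a light-harvesting protein gene, fell by 1.89 in gbf1 hy5 against wild type (adjusted p = 0.00113), and LHCB4.1 (-0.38) and LHCB4.3 (0.22) did not pass. None of the 5 root and root hair markers was called against wild type. Against gbf1 all 5 fell, with differences from -2.58 (PER44) to -1.18 (EXPA7), and LHCB4.2 fell by 2.28 (adjusted p = 0.000257). In gbf1 against wild type 4 of those 5 root markers rose, and in gbf1 hyh against gbf1 3 fell. The guard cell marker measured, FAMA, was not called in any comparison, and no seed or cell division marker was measured here. Between the double mutants EXPA18, AT1G30870, PER44 and LHCB4.2 were lower in gbf1 hy5. The part of organ composition in the SCPL differences was not tested.

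Against gbf1, 3 SCPL genes (10.3%) rose in gbf1 hy5, SCPL49, scpl35 and SCPL34, none fell and 26 were not called. Over all probe sets 4.45% were called, 2.40% as higher and 2.05% as lower. At an unadjusted p under 0.05 there were 6 SCPL genes, 5 higher and 1 lower, and 17.2% of all probe sets. Both gbf1 hy5 arrays lay above both gbf1 arrays in 10 SCPL genes (34.5%, against 25.2% of all probe sets) and below them in 3 (10.3%, against 20.2%). The median difference was 0.10 in the SCPL genes and 0.01 in all probe sets, and 18 of the 29 (62.1%) were above 0, against 52.1% of all. Without gbf1 hy5 replicate 1 only SCPL49 was called. The lowest difference was that of scpl48, at -0.64.

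In gbf1 hyh against gbf1, SCPL49 alone was called (3.45% of the SCPL genes), where 2.51% of all probe sets were called, 1.01% as higher and 1.5% as lower, so the share was near the background. Differences ran from -0.88 (SCPL45) to 0.85 (SCPL49), with a median of 0.08, against 0.02 over all probe sets. The median was 0.041 without gbf1 hyh replicate 2, and -0.019 with 14 of the 29 above 0 without both arrays of high control signal. At an unadjusted p under 0.05 there were 5 SCPL genes, 2 higher and 3 lower, and 14.3% of all probe sets. Both gbf1 hyh arrays lay above both gbf1 arrays in 6 SCPL genes (20.7%, against 21.1% of all probe sets) and below them in 5 (17.2%, against 17.2%).

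Between the double mutants, gbf1 hy5 had 3 SCPL genes higher than gbf1 hyh (10.3%), scpl35, SCPL45 and scpl25, and none lower. Over all probe sets 2.77% were called, 1.76% as higher and 1.02% as lower. At an unadjusted p under 0.05 there were 6 SCPL genes, all higher, and 14.1% of all probe sets. The median difference was 0.03 in the SCPL genes and -0.01 in all, and 15 of the 29 were above 0 (51.7%, against 48.6% of all). The median was 0.11 with 18 above 0 without gbf1 hyh replicate 2, and 0.013 without gbf1 hy5 replicate 1. Both gbf1 hy5 arrays lay above both gbf1 hyh arrays in 12 SCPL genes (41.4%, against 22.1% of all probe sets) and below them in 7 (24.1%, against 22.0%). The 3 genes reached their difference in separate ways: scpl35 had both gbf1 hy5 arrays above the other 6, while SCPL45 and scpl25 had both gbf1 hyh arrays below the other 6. Without gbf1 hy5 replicate 1 none of the 3 was called, and without gbf1 hy5 replicate 2, either gbf1 hyh array or either wild-type array only scpl35 was.

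No SCPL gene was called by limma in gbf1 or in gbf1 hyh against wild type, where 0.418% of all probe sets (0.224% higher, 0.193% lower) and 1.28% (0.365% higher, 0.919% lower) were called. At an unadjusted p under 0.05 there were 3 genes in gbf1, with 8.74% of all probe sets: scpl48 (0.84) and scpl35 (0.51) above wild type and SCPL49 (-0.42) below it. There were also 3 in gbf1 hyh, with 10.3% of all probe sets: scpl35 (0.48) and SCPL49 (0.43) above wild type and scpl25 (-0.51) below it. The median difference was 0.06 in gbf1 and 0.09 in gbf1 hyh, against 0.01 and 0.03 over all probe sets. Without wild-type replicate 2 these medians of the SCPL genes were -0.021 and 0.021, and without wild-type replicate 1 they were 0.11 and 0.15. That of gbf1 was 0.0087 without gbf1 replicate 1, and that of gbf1 hyh 0.044 without gbf1 hyh replicate 2. In gbf1 hyh 20 of the 29 differences were above 0 (69.0%, against 55.5% of all probe sets), and 17 without wild-type replicate 2 (58.6%, against 52.7%). Both gbf1 arrays lay above both wild-type arrays in 7 SCPL genes (24.1%, against 18.8% of all probe sets) and below them in 4 (13.8%, against 18.0%). For gbf1 hyh the counts were 10 above (34.5%, against 23.0%) and 3 below (10.3%, against 17.4%). The 3 comparisons with wild type share the wild-type arrays and are not independent of each other.

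**Figure D4:**
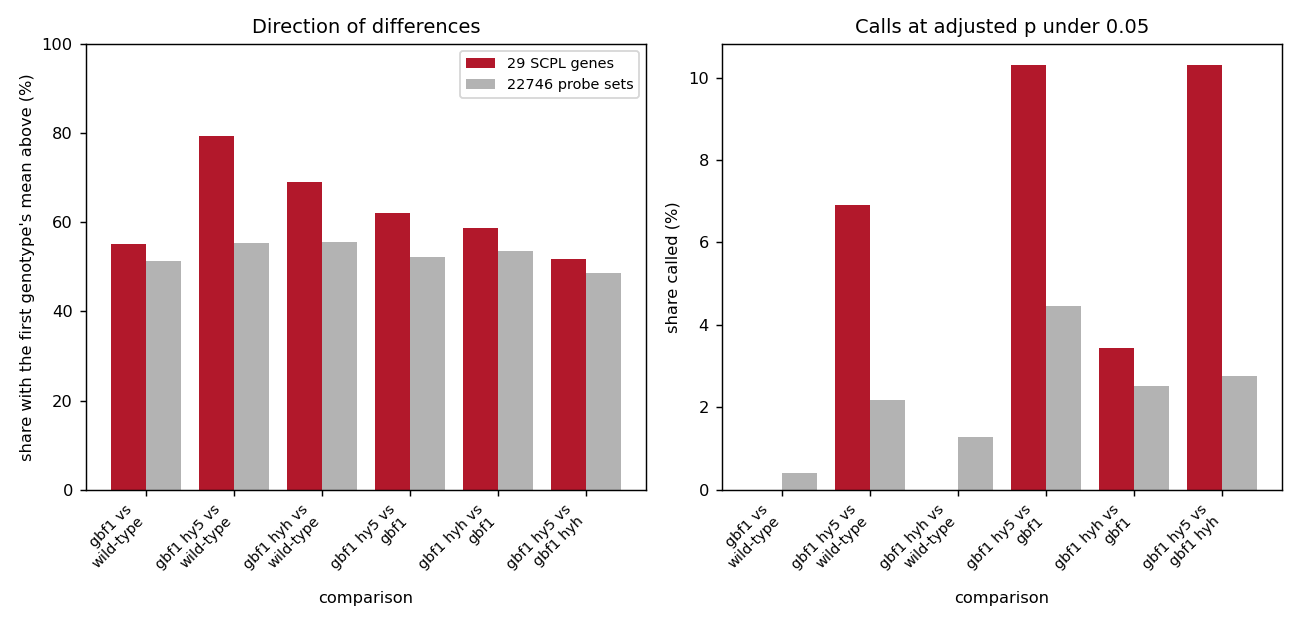
Share of the 29 SCPL genes (red) and of all 22746 probe sets (grey) with the first-named genotype's mean above the second's (left panel, %) and with a limma call (right panel, %), for 6 comparisons. The widest gap on the left is gbf1 hy5 against wild type, at 79.3% and 55.3%, and the red bars on the right stand for 0 to 3 genes.

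By genotype, gbf1 hy5 had the highest of the 4 means in 11 SCPL genes (37.9%, against 28.7% of all probe sets), gbf1 hyh in 9, gbf1 in 6 and wild type in 3 (10.3%, against 17.3%). The lowest mean was in gbf1 hy5 in 3 genes (10.3%, against 24.7%), in gbf1 hyh in 6, in gbf1 in 9 and in wild type in 11 (37.9%, against 24.2%). These shares were not tested, and they were not counted again with arrays left out. Wild-type replicate 2 had a median of -0.11 over the SCPL genes, against 0.01 on wild-type replicate 1. The part of that array in the counts for wild type was not tested.

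The 29 genes hold 2 pairs with no other protein-coding gene between them in the gene table, scpl22 with scpl23 and scpl28 with scpl26. None of these 4 genes was called. In gbf1 hyh against gbf1 scpl26 differed by 0.44 (adjusted p = 0.244) and its neighbour scpl28 by 0.11 (adjusted p = 0.86), and in gbf1 hy5 against gbf1 they differed by 0.32 and -0.11. For scpl22 and scpl23 the largest difference in size was 0.17.

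SNG1 and SNG2, which were not analysed here, take their acyl groups from the phenylpropanoid pathway. Of 21 genes of sinapate and phenylpropanoid synthesis, 6 had a probe set of their own. These were HCT, CCR2, REF1, UGT84A1, UGT84A3 and UGT84A4. The UGT84A genes encode glucosyltransferases of the kind that makes sinapoylglucose, the acyl donor of SNG1 and SNG2. None of the 6 was called in any of the 6 comparisons. In gbf1 hy5 against wild type their median difference was 0.02, equal to that of all probe sets at this precision. The median was farther from that of all probe sets elsewhere. It was 0.18 in gbf1 hyh against wild type (0.03 over all) and 0.19 in gbf1 hyh against gbf1 (0.02). It was -0.11 between the double mutants (-0.01), -0.08 in gbf1 against wild type (0.01) and -0.04 in gbf1 hy5 against gbf1 (0.01). The smallest adjusted p of the 6 genes was 0.0694, for UGT84A3 in gbf1 hyh against gbf1 (0.90). Its signals were 0.27 and 0.79 in gbf1 hyh and -0.11 and -0.64 in gbf1. Its values were farthest from 0 on the arrays of high control signal, and the part of those arrays in this difference was not tested.

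**Figure D5:**
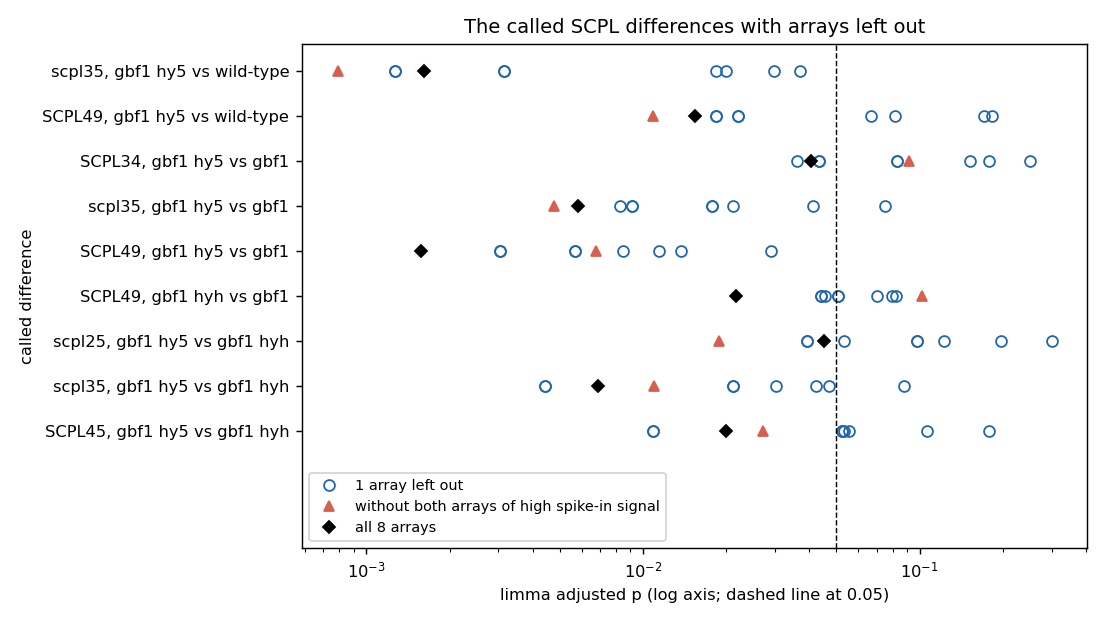
Adjusted p (horizontal log axis) of the 9 called SCPL differences with all 8 arrays, with 1 array left out, and without both arrays of high control signal, with a dashed line at 0.05. The circles of scpl35 against wild type and of SCPL49 in gbf1 hy5 against gbf1 all lie left of the line, at up to 0.0371 and 0.0291.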

How the data were processed

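Per the labels, biotin-labelled RNA from whole seedlings was hybridised to Affymetrix arrays. The deposited log2 values were made by the authors in GeneSpring with RMA, per the series design text and the submitters' processing notes. No source used here names the log base; base 2, the usual one for RMA, was assumed. Each of the 22810 probe sets had a median of 0 within 1e-06, so no filter on dim probe sets was possible. The 64 control probe sets were left out, and 22746 were tested: 13513 tied to 1 gene by the probe table, 503 to several and 8730 to none. All 29 SCPL genes matched the gene table of assembly TAIR10.1, used for names and gene order.

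limma 3.58.1 under R 4.3.3 fitted the genotype means over all 8 arrays (lmFit), then the contrasts and moderated variances (4 residual and 5.124 prior degrees of freedom), with Benjamini-Hochberg adjustment. A gene was described by array if it was called, or was among the 3 uncalled genes with the widest range of genotype means. scpl29, scpl20 and scpl42 were named after their values were seen. The fit was tested on simulated data. The members, lists, tests and alternatives were chosen with earlier results of these data known. The number of arrays limits the precision. A planned search of promoters was not run.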

Additional observations from a re-analysis of the deposited data

Results flagged for a closer look

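In 3 SCPL genes the effect of adding hy5 to gbf1 differed from that of adding hyh to gbf1, as tested by the limma contrast of gbf1 hy5 with gbf1 hyh, which called 2.77% of all probe sets. In scpl35 the effects were 1.19 for hy5 and -0.02 for hyh, a difference of 1.22 (adjusted p = 0.00686). In SCPL45 they were 0.29 and -0.88, a difference of 1.17 (adjusted p = 0.02). In scpl25 they were 0.10 and -0.67, a difference of 0.77 (adjusted p = 0.0453). With single arrays left out, scpl35 passed in 7 of 8 fits and SCPL45 and scpl25 in 2 of 8 each, and none of the 3 passed without gbf1 hy5 replicate 1. In each of the 3 genes both gbf1 hy5 arrays lay above both gbf1 hyh arrays, as in 22.1% of all probe sets. The genes were picked by this same contrast, so that separation adds no support. In SCPL45 neither effect on gbf1 was itself called by limma (adjusted p = 0.557 for hy5 and 0.0678 for hyh). The same held for scpl25 (adjusted p = 0.853 and 0.0774).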

How the results depend on the processing

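Counts of called SCPL genes in gbf1 (0) and gbf1 hyh (0) against wild type were the same under every alternative run. The count of 2 in gbf1 hy5 against wild type was 6 with array weights (with 5.8% of all probe sets called, against 2.18% without weights), 5 without both arrays of high control signal (4.95%), 5 when only the compared genotypes were fitted (the same fit by construction, since the lone arrays left in the other genotypes add no spread), and 1 to 2 with 1 array left out, the single gene being scpl35 without any 1 array of either genotype. The count of 1 in gbf1 hyh against gbf1 was 0 with array weights, 0 without both arrays of high control signal, 0 when only the compared genotypes were fitted, and 0 to 2 with 1 array left out. With 1 array left out the count of 3 in gbf1 hy5 against gbf1 was 1 to 3, and that of 3 between the double mutants was 0 to 3. The first was 2, without SCPL34, after quantile normalisation, without both arrays of high control signal and when only the compared genotypes were fitted. The second was 2, without scpl25, after quantile normalisation, over probe sets tied to 1 gene only and when only the compared genotypes were fitted. The F test count of 3 was 5 with array weights and 2 to 3 with 1 array left out. With the replicate number as a block the counts were 2 in gbf1 hy5 against wild type, 3 against gbf1 and 3 against gbf1 hyh, and 1 in gbf1 hyh against gbf1, for the same genes. The numbers were not shown to pair the arrays: correlations of the deviations of same-numbered arrays ran from -0.11 to 0.34 over the 6 pairs of genotypes. The cause of these changes was not tested. The counts of SCPL genes above 0, added after the values were seen, stayed within 1.5 times, but that band is too wide to show a lost excess. In gbf1 hy5 against wild type the count was 23 with all arrays and 16 without wild-type replicate 2 (55.2%, against 51.9% of all probe sets).

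No called SCPL difference changed sign, but small uncalled ones did. Sign changes were listed only for the 8 genes described by array. The other 21 genes were not followed one by one, so the list is not complete for the family. Without both arrays of high control signal the sign turned for SCPL34 (0.094) and scpl50 (-0.055) in gbf1 against wild type, and for SCPL34 (-0.044), scpl35 (0.18) and scpl46 (0.25) in gbf1 hyh against gbf1. Among the same 8 genes, it turned after quantile normalisation for SCPL34 in gbf1 against wild type (0.039). With single arrays left out, the differences of these 8 genes that turned ranged as follows. In gbf1 against wild type SCPL34 ranged from -0.14 to 0.094 and scpl50 from -0.11 to 0.29. In gbf1 hy5 against wild type scpl48 ranged from -0.049 to 0.46, and in gbf1 hyh against wild type scpl46 from -0.051 to 0.28. In gbf1 hy5 against gbf1 scpl25 ranged from -0.020 to 0.21. In gbf1 hyh against gbf1 scpl35 ranged from -0.22 to 0.17 and scpl46 from -0.42 to 0.088. Between the double mutants scpl48 ranged from -0.33 to 0.095.

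With 1 array left out, calls over all probe sets were 9 to 138 in gbf1 against wild type (95 with all arrays), 88 to 609 in gbf1 hy5 (495), 68 to 365 in gbf1 hyh (292), 241 to 1276 in gbf1 hy5 against gbf1 (1012), 282 to 660 in gbf1 hyh against gbf1 (571) and 162 to 794 between the double mutants (631). Other settings reached 36 to 149, 200 to 1320, 151 to 465, 414 to 1236, 90 to 654 and 271 to 736 in the same order. The lowest of these in 4 comparisons came from testing the 13513 probe sets tied to 1 gene only, a smaller set than the 22746 of the other settings.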

Other observations

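Among the genes described by array, 5 of 8 carry numbers from 45 to 50, a group noticed after the values were seen and therefore not tested. In gbf1 hy5 against wild type all 7 measured genes numbered 44 to 50 differed by more than 0, from 0.11 to 0.93 with a median of 0.58, while 16 of the other 22 did, from -0.26 to 1.70 with a median of 0.04. Over all probe sets 55.3% were above 0. Without wild-type replicate 2 not all 7 were, since scpl48 was then at -0.049. The group was not counted again with arrays left out. Between the double mutants the medians were 0.46 for the 7 and -0.04 for the 22. In gbf1 hyh against gbf1 they were -0.09 and 0.09.

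The 3 SCPL genes without a probe set of their own were measured with other genes. The probe set of scpl36 and scpl37 differed by at most 0.14 in size in any comparison, and that of scpl39 and AT3G56540 by at most 0.18, with no call in either.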
